A study of Rattus norvegicus with 4 samples.

Results

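The solute carrier (Slc) genes encode the largest group of membrane transporters in mammals, and 141 of them gave a signal in NRK-52E cells 12 h after exposure to hydrogen peroxide (H2O2). Members were the genes whose current rat symbol begins with Slc and a digit, apart from Slc3a2, Slc11a2, Slc40a1 and Slc5a2, with a probe well above background on at least 1 of the 4 arrays. Of 212 Slc genes with a probe that a RefSeq accession could name, 71 had no probe above background. The 141 members stand among 6028 named genes that passed the same signal rule. A gene's brightest probe represented it. The genes for the cystine carrier Slc7a11 and the cationic amino acid carrier Slc7a1 had no probe named in this way and are not analysed here.

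NRK-52E is an established rat kidney tubular epithelial line. Confluent cultures were exposed for 1 h to 0.003, 0.006 or 0.009% H2O2 in DMEM, a culture medium, or to medium without H2O2 as the control. All cultures, the control included, were then washed and held for 12 h without serum before total RNA was taken, so the control was serum-starved as well. The series title concerns signals that dying cells send to their neighbours. There was 1 culture and 1 one-colour array per dose, so no value has a replicate error, differences at one dose carry no test, and a 2-fold difference serves only as a rule of size.

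Solute carriers move ions, sugars, amino acids, metals, vitamins and metabolites across the plasma membrane or the membranes of organelles. Some are exchangers, some are driven by the sodium or proton gradient, and others only let their substrate equilibrate. In kidney tubule cells they take back filtered solutes, secrete organic ions and hold cell volume and pH. Families are numbered by sequence, so members of one family may carry different substrates.

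Levels below are log2 spot signals relative to each array's 75th percentile, and a difference is the treated level minus the control level on that log2 scale. The 75th percentile itself was 180, 168, 158 and 121 intensity units at 0, 0.003, 0.006 and 0.009% H2O2, and between 51.8 and 54.9% of probes were well above background on an array. Where a gene was not well above background on one array of a pair, its difference was set against the higher of its own signal and the dimmest signal above background there, and is given as a bound ("at least N-fold"). Of the 6 listed tubule epithelium markers 5 had a named probe. Krt8 and Krt18 were above background on all 4 arrays, Cdh1 on 2, and Epcam and Cldn1 on none. Krt8 differed from the control by -0.09, -0.44 and -0.68 at the 3 doses, and Krt18 by 2.22, 2.76 and 3.10. The Krt18 control level of -3.95 was close to the dimmest signal above background there, -4.14. With the mean of its probes Krt18 differed by 1.35, 1.81 and 2.14, and with normexp background correction by 0.75, 1.05 and 1.28. The summed signal of that list, in units of the array's 75th percentile, was 59.4, 56.2, 44.1 and 37.5 in order of dose, most of it from Krt8. The proximal tubule markers, 6 of 6 above background on some array, summed to 4.91, 2.64, 2.97 and 3.50, but moved in both directions. Aqp1 differed from the control by -2.11, -1.85 and -1.33, and Anpep by -1.50, -1.05 and -0.68. Hnf4a differed by 0.44, 0.87 and 1.25, and Cubn by bounds of 0.65, 1.40 and 1.14. Ggt1 stayed within 0.21, and Lrp2 was above background on the control array only. Among fibroblast markers 2 of 3 with a probe were above background, with sums of 28.6, 8.44, 12.2 and 17.8, and Thy1 was not. Macrophage markers (3 of 3) summed to 2.41, 2.98, 3.97 and 4.31, most of it from Cd68, and did not move together. Cd68 differed from the control by 0.28, 0.79 and 0.88, and Adgre1 by 0.61, a bound of -0.75 and -0.32. Csf1r was above background on 1 array only. Endothelial markers, represented by Kdr of 2 with a probe, summed to 0.107, 0.202, 0.246 and 0.322. These sums moved with dose beside the transporter values below, and their part in those values was not tested. Fewer cells of a type and less RNA per cell cannot be told apart in such cultures, and neither can dose and slide position.

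At 0.003% H2O2, 15 of 132 compared members passed 2-fold on the higher side of the control culture and 19 on the lower side. These were 11.4% and 14.4% of the members, beside 16.1% higher and 12.0% lower among all named genes. At 0.006%, 14 were higher and 15 lower of 130, which is 10.8% and 11.5%, beside 14.8% and 8.03% of named genes. At 0.009%, 18 were higher and 8 lower of 134, which is 13.4% and 5.97%, beside 13.8% and 5.14%. The median difference of the members was -0.17, -0.16 and -0.0021 at the 3 doses, and that of named genes 0.01, -0.01 and 0.05. The members' shares stood within 5 percentage points of the named genes' shares in each of these counts. Some of the higher counts were bounds from a dim control, 4 at 0.003%, 5 at 0.006% and 9 at 0.009%.

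**Figure D1:**
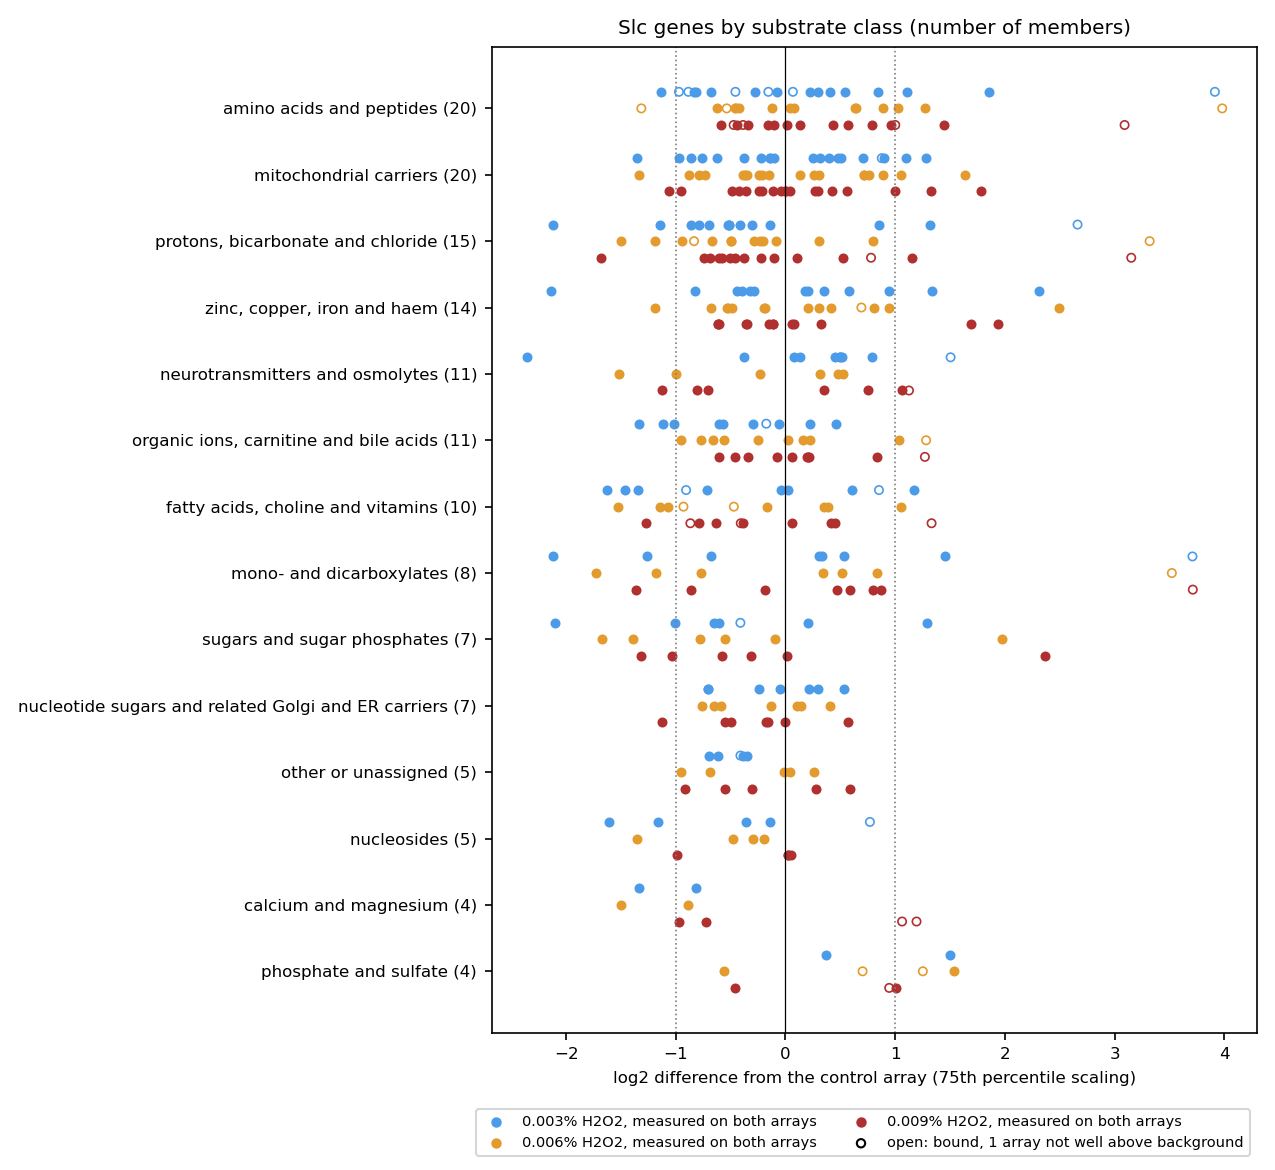
Log2 difference of each Slc gene from the control culture (horizontal axis, log2 units) at each H2O2 dose, by transported substrate (rows), with 1 point per gene and bounds marked apart. Most points lie within 1 log2 unit of 0, and the genes farthest to the right are Slc7a5, Slc13a3 and Slc5a5, whose values are bounds.

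The balance of higher and lower members depended on how arrays were scaled. With the 75th percentile, the higher ones were 44.1, 48.3 and 69.2% of all members past 2-fold at 0.003, 0.006 and 0.009%. The same share over all named genes was 57.4, 64.8 and 72.9%. With each array's median, or in the authors' deposited table, the members' share was 34.2, 18.9 and 15.2%. The named genes' share was then 45.3, 34.8 and 19.3%. For the members quantile normalization gave 45.5, 30.8 and 34.8%, and scaling to the spike-in probes 29.3, 10.9 and 4.49%. Normexp background correction gave them 29.4, 43.8 and 54.5%. For named genes quantile normalization gave 52.2, 55.8 and 51.9%, spike-in scaling 41.4, 18.9 and 4.32%, and normexp 56.7, 59.6 and 58.0%. Spike-in scaling moved the median of all features by -0.19, -0.50 and -1.15 at the 3 doses, and the array median moved it by -0.15, -0.25 and -0.53. The members' surplus at 0.009% therefore lay on the higher side only with the 75th percentile, with normexp, with genes above background on both arrays (52.9%) and with the mean of a gene's probes (70.4%). The named genes' surplus lay on the higher side in the same settings (63.7 and 73.7% in the last ones named) and with quantile normalization.

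**Figure D2:**
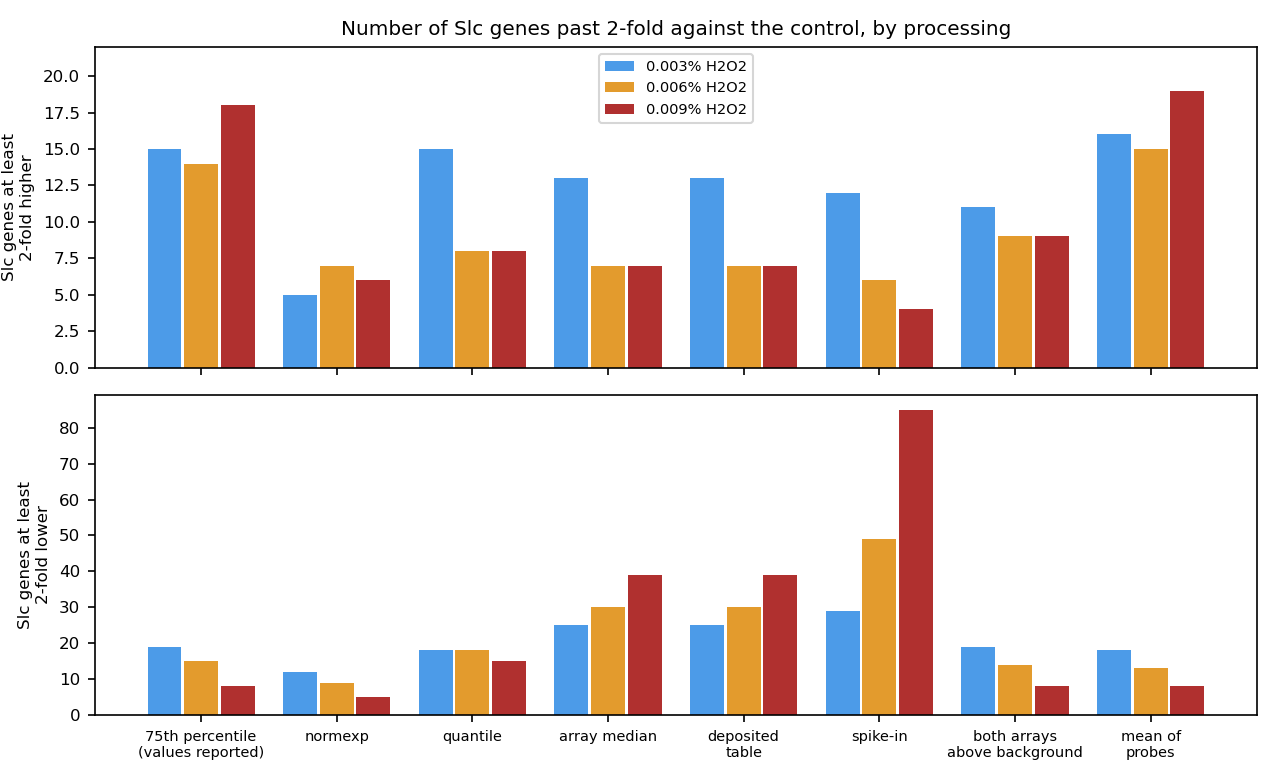
Number of Slc genes past 2-fold above and below the control culture (vertical axis, genes) at each dose under each way of processing. At 0.009% the count of lower genes runs between 5 with normexp and 85 with spike-in scaling, beside 8 with the 75th percentile.

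Across the doses, 126 members could be compared at all 3, and 82 of them (65.1%) were never 2-fold from the control, as were 65.4% of named genes. Higher at every dose were Slc5a3, Slc5a5, Slc7a5, Slc13a3, Slc20a1, Slc25a25 and Slc30a1, which is 7 members or 5.56%, beside 7.57% of named genes. Lower at every dose were Slc2a5, Slc6a4, Slc12a2, Slc13a5 and Slc27a1, which is 5 members or 3.97%, beside 3.35%. A second Slc6a4 probe read above the control at each dose. A further 4 members were higher and 6 lower at 0.003% only (3.17 and 4.76%, beside 3.60 and 5.73%). At 0.009% only, 4 were higher and 2 lower (3.17 and 1.59%, beside 1.97 and 1.15%). No member was 2-fold higher at one dose and 2-fold lower at another.

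**Figure D3:**
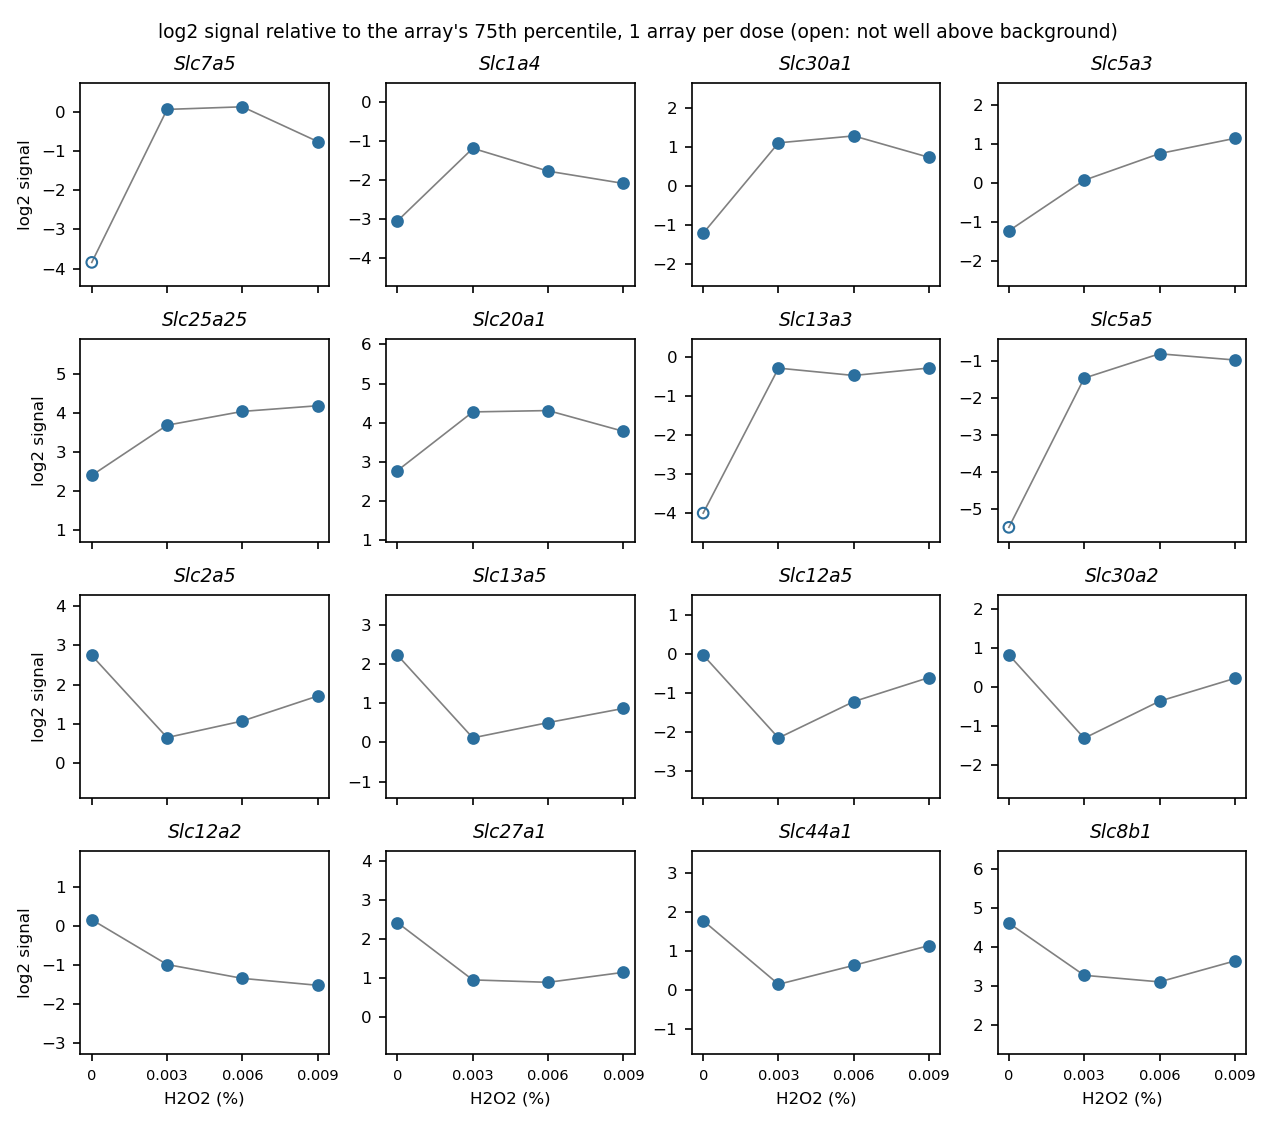
Log2 signal relative to the array's 75th percentile (vertical axis) on each of the 4 arrays against H2O2 dose (horizontal axis, percent) for selected Slc genes past 2-fold at 1 dose or more, with values not well above background as open points. The upper panels, Slc7a5 to Slc5a5, lie above their control value on all 3 treated arrays, and the lower panels, Slc2a5 to Slc8b1, below it. On this scale Slc2a5, Slc13a5, Slc12a5, Slc30a2 and Slc44a1 are lowest at 0.003%, whereas Slc12a2 is lowest at 0.009%. With spike-in scaling Slc13a5 is lowest at 0.009%.

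Counts by class, here and below, stand beside 16.1, 14.8 and 13.8% higher and 12.0, 8.03 and 5.14% lower among all named genes. Amino acid and peptide carriers formed 1 of the 2 largest classes, with 20 members. Of 19, 18 and 19 compared, 3 were 2-fold higher at each dose, although Slc7a5 alone was higher at all doses. The lower ones were 1 at 0.003%, 1 at 0.006% and none at 0.009%. Slc7a5, which exchanges large neutral amino acids such as leucine for intracellular glutamine, was not well above background in the control culture and gave levels of 0.07, 0.14 and -0.75 at 0.003, 0.006 and 0.009%. As bounds, these exceeded the control by 15.1-fold or more at 0.003%, 15.8-fold or more at 0.006% and 8.53-fold or more at 0.009%. Its signal was above background on all 3 treated arrays and not on the control array. With normexp, which adds an offset of 50 intensity units to every signal, the Slc7a5 differences were 1.72, 1.76 and 1.27 on the log2 scale.

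Slc1a4, a sodium-dependent exchanger of alanine, serine and cysteine, had levels of -3.05, -1.19, -1.78 and -2.09 from the control to 0.009%. All 3 treated arrays were above the control, by 1.86 at 0.003%, 1.27 at 0.006% and 0.96 at 0.009% on the log2 scale. The value at 0.009% changed sign with spike-in scaling, and with normexp the 3 differences were 0.69, 0.51 and 0.55. Slc1a5, its close relative that takes up glutamine, had levels of 3.03, 3.88, 4.05 and 3.60, and differed from the control by 0.84, 1.02 and 0.57. Slc38a2, a sodium-coupled carrier of small neutral amino acids known to be induced when amino acids are scarce, had levels of 5.18, 5.73, 5.83 and 5.97. Its differences of 0.54, 0.64 and 0.79 stayed under 2-fold at every dose. Both Slc1a5 and Slc38a2 turned below the control at 0.009% with spike-in scaling.

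The promoter of Slc1a4 is shown because it is 1 of 3 among 117 matched Slc promoters with the letters TGATGNAA, the core of the element that ATF4 and C/EBP factors bind. The window is 250 bases before to 50 after the gene's start in RefSeq (GRCr8, chr14:98761513-98761812, minus strand), and capitals mark the match, which reads on the opposite strand and begins at position -235 from the start.
Slc1a4: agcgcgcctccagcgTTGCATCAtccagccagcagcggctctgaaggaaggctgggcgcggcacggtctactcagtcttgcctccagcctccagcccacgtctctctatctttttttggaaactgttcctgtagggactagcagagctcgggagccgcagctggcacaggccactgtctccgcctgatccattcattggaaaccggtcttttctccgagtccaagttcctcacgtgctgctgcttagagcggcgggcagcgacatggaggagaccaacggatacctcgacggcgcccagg
Of all 27457 rat promoters of this length, 3.82% held TGATGNAA on either strand, beside 2.56% of the Slc promoters. The other two were those of Slc38a1 and Slc49a4. The Slc7a5 promoter window held no such match.

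The cationic amino acid carrier Slc7a3 had levels of -3.42, -3.13, -2.54 and -1.98, each above the one before, and its differences were 0.30, 0.89 and 1.44. With spike-in scaling the Slc7a3 differences were 0.105, 0.328 and 0.253. Slc7a2, another cationic amino acid carrier and chosen here after its values were seen, was above background at 0.009% only, with a bound of 1.00 on the log2 scale. Slc15a4, which exports peptides and histidine from lysosomes, moved the other way with dose. Its levels were 1.63, 2.73, 2.26 and 1.47, so it was 1.11 higher than the control at 0.003%, 0.64 higher at 0.006% and 0.16 lower at 0.009%. Slc38a6 was lower, by 1.13 at 0.003% and at least 2.49-fold at 0.006%. Its second probe read 0.37 at 0.006%.

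Among sugar and polyol carriers, 1 of 7 was higher at each dose, Slc5a3, and 2 were lower at each, of which Slc2a5 was lower at all doses. Slc5a3 is the sodium-coupled myo-inositol carrier that cells use to gather an osmolyte under hypertonic conditions. Its levels were -1.23, 0.06, 0.75 and 1.14 in order of dose, and each dose lay above the one before. The differences of 1.29, 1.98 and 2.37, or 2.45-fold, 3.93-fold and 5.15-fold, had a scanner spot error of about 0.21 log2 units each, which holds no spread between cultures or arrays. At 0.006 and 0.009% Slc5a3 stayed at least 2-fold higher under every alternative run. With spike-in scaling its differences were 1.10, 1.42 and 1.18, so the rise with dose did not hold there.

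Slc2a5, the fructose transporter of the brush border in rat kidney and gut, had levels of 2.74, 0.64, 1.07 and 1.71. It was lower than the control by 2.10, 1.68 and 1.04, least so at the highest dose in the reported values. With spike-in scaling the Slc2a5 differences were -2.29, -2.23 and -2.23. It kept a 2-fold difference at all 3 doses in every alternative. Array median and spike-in scaling shifted all treated values downward, so they could only widen a lower difference. With normexp the Slc2a5 differences were -1.90, -1.56 and -1.07. The intracellular hexose carrier Slc2a8 had levels of -0.18, -0.83, -1.57 and -1.49, with differences of -0.65, -1.39 and -1.31. The insulin-responsive glucose transporter Slc2a4 had levels of -1.79, -2.80, -2.35 and -1.77, so it was 1.01 lower at 0.003%. At 0.009% the value of 0.02 changed sign with quantile normalization, spike-in scaling and the array median, which is also the scaling of the deposited table. Slc2a1, the widespread basal glucose transporter, had levels of 3.92, 4.13, 3.83 and 3.61, and stayed within 0.32 log2 units of the control. At 0.009% its difference of -0.32 was -0.88 with the array median and the deposited table, and -1.51 with spike-in scaling.

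The zinc, copper, iron and haem carriers held 14 members. Of 13, 14 and 13 compared at 0.003, 0.006 and 0.009%, 2, 1 and 2 were higher and 1, 1 and 0 lower. All members past 2-fold belonged to the Slc30 family, which moves zinc out of the cytosol, and no member of the zinc importing Slc39 family was 2-fold from the control at any dose by its brightest probe. A second Slc39a11 probe read -1.27 at 0.003%. Slc30a1, the zinc exporter of the plasma membrane whose transcription follows cellular zinc through the factor MTF1, had levels of -1.20, 1.11, 1.29 and 0.74. It was higher by 2.31, 2.49 and 1.94, that is 4.97-fold, 5.62-fold and 3.84-fold, with spot errors of 0.21 log2 units. Spike-in scaling left a difference of 0.75 at 0.009%.

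The Slc30a1 promoter is shown because it holds several matches to TGCNCNC, a loose form of the metal response element core that MTF1 binds, and to TGANNNNGC, the antioxidant response element core. The RefSeq window (GRCr8, chr13:106021769-106022068, plus strand) has 4 such matches on either strand, in capitals, which begin at positions -186, -130, -91 and -18 from the gene's start.
Slc30a1: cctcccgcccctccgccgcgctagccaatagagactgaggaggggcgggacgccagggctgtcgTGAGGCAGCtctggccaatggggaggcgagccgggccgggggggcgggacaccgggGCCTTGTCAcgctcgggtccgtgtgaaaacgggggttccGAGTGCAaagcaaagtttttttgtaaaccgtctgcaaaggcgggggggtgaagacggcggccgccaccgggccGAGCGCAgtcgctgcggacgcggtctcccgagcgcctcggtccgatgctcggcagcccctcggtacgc
TGCNCNC stood in 54.7% of the Slc promoters and 50.1% of all rat promoters, and TGANNNNGC in 44.4% and 40.4%, so both are common letters in windows of this length. The Slc25a25 promoter held 2 of each motif, and the Slc7a5 promoter 2 of TGCNCNC and none of TGANNNNGC.

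The other Slc30 members load zinc into vesicles and differed among themselves. Slc30a2 had levels of 0.81, -1.32, -0.37 and 0.21, lower than the control by 2.13 at 0.003% and by 0.60 at 0.009%. Slc30a3 had levels of -2.27, -1.92, -1.32 and -0.57, with differences of 0.35, 0.95 and 1.69 that increased with dose. Slc30a4 had levels of -0.79, 0.55, 0.02 and -0.94, 1.34 higher than the control at 0.003% and 0.15 lower at 0.009%, the last with its sign turned by normexp. Mt1, a metallothionein that buffers zinc, was measured by the only named probe of that family, and differed by 0.57, 0.86 and 1.17. The Mt1 value at 0.009% turned below the control with spike-in scaling.

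Of 8 monocarboxylate and dicarboxylate carriers, Slc13a3 and Slc13a5 differed in opposite directions at every dose. Slc13a3, the high-affinity sodium-dicarboxylate carrier that takes up succinate, was not well above background in the control and had levels of -0.29, -0.48 and -0.29 at the 3 doses. The bounds above the control were 13.1-fold at 0.003%, 11.5-fold at 0.006% and 13.1-fold at 0.009%, and with normexp the differences were 1.52, 1.43 and 1.54 on the log2 scale. Slc13a5, the citrate carrier of the plasma membrane, had levels of 2.23, 0.12, 0.51 and 0.87 and was lower by 2.12, 1.73 and 1.36. Both kept 2-fold differences at all 3 doses in each alternative that gave a value. For Slc13a5, array median and spike-in scaling could only widen the lower difference. Spike-in scaling gave Slc13a5 differences of -2.31, -2.28 and -2.55, widest at 0.009%, and normexp -1.81, -1.56 and -1.32.

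In the Slc16 family of monocarboxylate carriers, 3 members passed 2-fold by their brightest probe, each at 1 dose. Slc16a6, chosen here after its values were seen, had 2 probes that disagreed in size. Its brightest probe differed by 0.53, 0.84 and 0.87, and its second probe by 2.83, 3.75 and 3.57. With the mean of a gene's probes, 3, 2 and 2 of the 8 carriers of this class were higher, in place of 2, 1 and 1. Slc16a3, which exports lactate from glycolytic cells, had a level of -2.28 at 0.003% and of -3.73 in the control, a difference of 1.45. At 0.006% it was not above background, and at 0.009% the difference was 0.59 and changed sign with quantile normalization and spike-in scaling. Slc16a4 was 1.27 lower at 0.003% and 0.19 lower at 0.009%. Slc16a13 was 1.18 lower at 0.006% and under 2-fold at the other doses.

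Slc5a5, the sodium-iodide symporter best known from the thyroid, was placed with the 15 proton, bicarbonate and chloride carriers as an anion carrier. It was not well above background in the control and had levels of -1.47, -0.82 and -0.98, with bounds above the control of 6.33-fold, 9.99-fold and 8.89-fold. With normexp its differences were 0.79, 1.12 and 1.21. Slc26a4, an anion exchanger for chloride, iodide and bicarbonate, had levels of -3.33, -2.01, -2.53 and -2.17, with differences of 1.32, 0.80 and 1.16, the last turning to -0.03 with spike-in scaling.

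The chloride cotransporters Slc12a2 and Slc12a5 were lower than the control at each dose. Slc12a2, which brings sodium, potassium and chloride into the cell and serves volume recovery, had levels of 0.15, -0.99, -1.35 and -1.52, each below the one before. Its differences were -1.15, -1.50 and -1.68. With the mean of its probes they were -0.87, -1.61 and -1.52, and with normexp -0.69, -0.89 and -0.80. Slc12a5, a potassium-chloride cotransporter best known from neurons, had levels of -0.03, -2.15, -1.22 and -0.60, with its lowest value at 0.003% and a difference of -0.57 at 0.009%.

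Of 4 phosphate and sulfate carriers, Slc20a1 was 2-fold higher at all 3 doses. This sodium-phosphate carrier, which also serves as a retrovirus receptor, had levels of 2.77, 4.27, 4.31 and 3.78 and differences of 1.50, 1.54 and 1.00. The value at 0.009% turned to -0.18 with spike-in scaling. Slc34a2, a sodium-phosphate carrier of lung and gut epithelia, passed only at 0.006%, with a bound of 1.25 on the log2 scale. This bound was 0.49 with normexp and 0.69 with spike-in scaling.

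The mitochondrial Slc25 carriers were the other class of 20 members. Of 20, 19 and 19 compared, 2 were higher and 1 lower at each dose. Slc25a25, a calcium-regulated carrier that exchanges ATP-magnesium for phosphate, had levels of 2.41, 3.69, 4.05 and 4.19 and differences of 1.28, 1.64 and 1.78. Its treated values all exceeded the control value, and each dose lay above the one before in the reported values. The Slc25a25 differences were 1.14, 1.33 and 1.22 with the array median and 1.09, 1.08 and 0.59 with spike-in scaling. The stepwise rise did not hold in either of these.

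Slc25a51, the mitochondrial NAD+ carrier, had levels of 0.17, 0.03, -0.56 and -0.89 and was lower by 0.14, 0.73 and 1.06. The probe farthest from the control among its 4 read -1.15 at 0.003% and -1.50 at 0.006%. The citrate carrier Slc25a1 had levels of 1.32, -0.03, -0.01 and 0.37, with differences of -1.36, -1.33 and -0.95. The mitochondrial and plasma membrane citrate carriers were thus both lower at every dose, though Slc25a1 was short of 2-fold at 0.009%. Slc25a34 and Slc25a47 were higher, by up to 1.05 at 0.006% and 1.33 at 0.009%. These 2 values were 0.31 and 0.72 with normexp, and 0.49 and 0.14 with spike-in scaling. Slc25a34 turned to -0.19 at 0.009% with spike-in scaling.

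Carriers of fatty acids, choline and vitamins held 10 members. Of 10, 9 and 10 compared, 3, 3 and 1 were lower, where 12.0, 8.03 and 5.14% of named genes were. Slc27a1, a fatty acid transport protein, had levels of 2.42, 0.95, 0.89 and 1.14 and was lower by 1.46, 1.53 and 1.27, past 2-fold at all doses in every alternative. Array median and spike-in scaling could only widen this lower difference, and normexp gave -1.41, -1.35 and -1.22. The choline carrier Slc44a1 had levels of 1.77, 0.14, 0.62 and 1.13 and was lower by 1.63, 1.14 and 0.64. Slc46a1, the proton-coupled folate carrier, was lower by 1.34, 1.07 and 0.79. For Slc44a1 and Slc46a1 the gap from the control was thus widest at 0.003% in the reported values. With spike-in scaling the Slc44a1 differences were -1.82, -1.70 and -1.82, and those of Slc46a1 -1.53, -1.63 and -1.97. The gap at 0.003% was then no wider than at 0.009% for Slc44a1, and the narrowest for Slc46a1. The thiamine carrier Slc19a2 was higher by 1.17 and 1.05 at 0.003 and 0.006%, with 0.45 at 0.009% that turned with the array median, the deposited table and spike-in scaling. Slc27a5, a bile acid and fatty acid ligase of liver, was higher at 0.009% by at least 2.52-fold. On the log2 scale that bound was 0.55 with normexp and 0.14 with spike-in scaling.

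Nucleoside carriers were 5, with 2 of 5 compared lower at 0.003%, 1 of 4 at 0.006% and 0 of 4 at 0.009%. Slc29a1, the plasma membrane carrier for adenosine, had levels of 2.41, 1.25, 1.94 and 2.46, lower by 1.16 at 0.003% and 0.05 higher at 0.009%. The last value changed sign with normexp, spike-in scaling and the array median, which is also the scaling of the deposited table. Slc29a3, a lysosomal nucleoside carrier, had levels of 1.80, 0.19, 0.45 and 0.82, with differences of -1.61, -1.35 and -0.99. In the reported values both were lowest at 0.003% and nearer to the control at each higher dose. With spike-in scaling the Slc29a3 differences were -1.80, -1.91 and -2.18, and those of Slc29a1 -1.35, -1.03 and -1.14. Slc29a3 was then farther from the control at each higher dose, and Slc29a1 was still farthest at 0.003%.

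Among 11 organic ion carriers, 3 of 10 compared were lower at 0.003%, where 12.0% of named genes were, and none at the higher doses. With the array median 2 of 11 were lower at 0.006% and 2 at 0.009%. The 3 lower at 0.003% in the reported values were Slc10a7, Slc22a18 and Slc22a17, a receptor for the iron-carrying protein lipocalin. The Slc22a17 differences were -1.12, -0.77 and -0.34. Slc22a18 differed by -1.33, -0.95 and -0.61, and Slc10a7 by -1.01, -0.56 and -0.08, the last with its sign turned by normexp. Slc47a1, the proton-coupled exporter of organic cations at the tubule brush border, was above background only at 0.006 and 0.009%, with bounds of 1.28 and 1.27 on the log2 scale. These bounds were 0.46 and 0.62 with normexp, and 0.72 and 0.08 with spike-in scaling. Slc22a4 was 1.04 higher at 0.006% and 0.20 higher at 0.009%. The last value changed sign with quantile normalization, spike-in scaling and the array median, which is also the scaling of the deposited table.

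Of 11 carriers of neurotransmitters and osmolytes, Slc6a4 was lower at every dose. The brightest probe of this serotonin transporter had levels of -1.34, -3.70, -2.86 and -2.47, with differences of -2.36, -1.52 and -1.13. A second Slc6a4 probe read 0.19, 0.80 and 1.37 at the same doses. Slc6a4 was the only member of 29 with several probes above background whose probes were 2-fold apart from the control in opposite directions, and with their mean the value at 0.009% was 0.12. Slc6a13, a taurine and GABA carrier, was above background at 0.003% only, at least 2.84-fold higher. Slc6a11, a GABA carrier, was higher by 1.06 at 0.009%, which turned to -0.13 with spike-in scaling. Slc6a2, the noradrenaline carrier, was higher at 0.009% with a bound of 1.13 on the log2 scale, which was 0.66 with normexp.

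Calcium and magnesium carriers were 4, and only 2 of them could be compared at the lower doses. Slc8b1, the mitochondrial sodium-calcium exchanger, had levels between 3.1 and 3.64 at the 3 doses and of 4.61 in the control, and was lower by 1.34, 1.50 and 0.97. Slc8a2 and Slc24a2, plasma membrane sodium-calcium exchangers, were above background at 0.009% only, with bounds of 1.19 and 1.06 on the log2 scale. With normexp these were 0.56 and 0.61, and with spike-in scaling the Slc8a2 bound was 0.0068. Among 7 nucleotide sugar carriers Slc35e4 alone passed, at 0.009%, with levels of 2.22, 2.43, 1.63 and 1.09 and a difference of -1.13. The 5 members outside these classes all stayed under 2-fold.

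**Figure D4:**
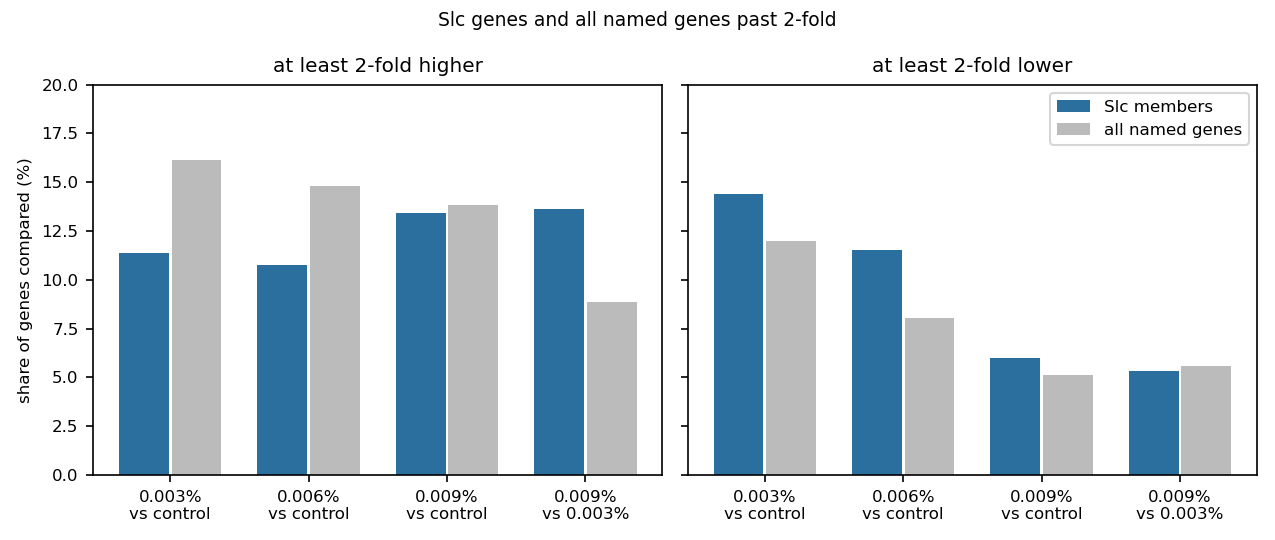
Share of Slc genes and of all named genes (vertical axis, percent) past 2-fold on the higher and on the lower side in each comparison, bounds included. Between 0.009 and 0.003% the Slc genes stand at 13.6% higher and the named genes at 8.86%, and in the 3 comparisons with the control the Slc genes are lower than the named genes on the higher side.

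Between the highest and the lowest dose, 18 of 132 members passed 2-fold on the higher side at 0.009% relative to 0.003% and 7 on the lower side. These were 13.6 and 5.30%, beside 8.86 and 5.56% of named genes. Of the 18 higher members 6 were bounds from a dim 0.003% array, as were 177 of the 518 higher named genes. With genes above background on both arrays the higher share was 10.4%, beside 6.51% of named genes. With the array median the higher share was 1.52%, beside 2.12% of named genes, and with normexp 0.758%, beside 1.25%. The higher genes were led by Slc12a5 at 1.55, Slc30a2 at 1.53, Slc30a3 at 1.34 and Slc6a4 at 1.23. Slc12a5, Slc30a2 and the brightest Slc6a4 probe were lower than the control at 0.003%, so here they stood nearer to it at 0.009%. The second Slc6a4 probe read 0.19 at 0.003% and 1.37 at 0.009% against the control. The lower genes included Slc4a7 at -1.54, Slc17a6 at -1.50, Slc30a4 at -1.49, Slc35e4 at -1.35, Slc15a4 at -1.26 and Slc39a9 at -1.05. Slc4a7, Slc17a6 and Slc39a9 were chosen after their values were seen.

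A straight line over dose was the test applied to the 4 arrays. Fitted in limma over 23767 features with 2 residual degrees of freedom, it called no member and no feature at an adjusted p under 0.05, and the lowest adjusted p of a member was 0.3001. At an unadjusted p under 0.05 stood 19 members (13.5%), beside 15.3% of all features. Of these 19 slopes 15 were rising and 4 falling, and several rising members, such as Slc8a2 and Slc6a2, were above background at 0.009% only. With genes above background on all 4 arrays, 7 were rising and 4 falling. The split was 3 rising and 23 falling with the array median and the deposited table, 6 and 7 with quantile normalization, and 0 and 61 with spike-in scaling. In the reported values Slc5a3 had a slope of 2.33 log2 units over the dose range and Slc12a2 one of -1.62.

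Transporters outside the Slc families were counted on the same arrays. Of ABC transporters, which pump substrates with ATP, 6 of 17, 6 of 16 and 5 of 15 compared were 2-fold lower, where 12.0, 8.03 and 5.14% of named genes were, such as Abca2 by 2.09, 1.82 and 1.19. A single ABC gene was higher at each dose, each time a different one and a bound. Of the aquaporins, 0 of 6, 2 of 7 and 2 of 6 were higher and 1 lower at each dose. Among 8 ATPase pump genes, 2, 1 and 1 were higher, Atp1b2 with 1.57, 1.74 and 1.92, and 2, 1 and 2 lower. Of 7 genes for partners of Slc proteins, 2 were lower at 0.003%, 1 at 0.006% and none at 0.009%, among them the scaffold Nherf1, which was lower by 1.63, 1.24 and 0.85. Slco organic anion carriers were 3, with 1 lower at 0.003% and 1 higher at 0.009%.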

How the data were processed

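Each RNA sample was hybridised to 1 one-colour array (Agilent design 014879, rn4), and the 4 arrays shared 1 slide and 1 scan. Per the file headers, the authors extracted spot intensity in Agilent's Feature Extraction software (version 10.7.3.1, GE1_107_Sep09 protocol), background-subtracted and without scaling between arrays. The authors' deposited value table holds a ratio of the mean signal to the array median (100% of probes equal within 1e-06).

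From these, non-uniform and outlier spots were dropped, spots of a probe averaged, and log2 intensity taken minus the log2 75th percentile of 43379 noncontrol spots. A probe was well above background where at least 0.5 of its spots were, which leaves out Slc9a3. Dim sides took the higher of their own log2 signal and the array's lowest well above background, between -4.14 and -3.58. RefSeq accessions named 26.4% of 41012 probes (10835), with symbols and promoter windows from RefSeq GRCr8. No saturated spot occurred. Spot errors came from the scanner's own error column.

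Members, classes and lists were chosen with earlier results of these data known. Slc6a20a and Slc7a6os (an opposite-strand gene, not a transporter) were put in classes by name once the files were read. Named genes were, per class, up to 4 highest and 4 lowest members past 2-fold, the 10 highest and lowest at each dose, trend calls and a short fixed list. Pandas 2.3.3, numpy 2.4.6, R 4.3.3 and limma 3.58.1 were used, with Benjamini-Hochberg adjustment, and the scripts were tested on simulated data. Alternatives were normexp (offset 50, on median spot signals since no mean signal column was present), array median, quantile and spike-in scaling (8 probes, amounts not given), genes above background on both arrays, the mean of a gene's probes, and the deposited table. One gene that the rule would name is not reported here.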

Additional observations from a re-analysis of the deposited data

How the results depend on the processing

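No paired analysis was possible because each dose had 1 array, and for the same reason no replicate could be left out. The number of Slc genes at least 2-fold higher at 0.003%, 15 with the 75th percentile, was 5 with normexp, and the number lower, 19, was 12 with normexp and 29 with spike-in scaling. At 0.006%, the higher count of 14 was 7 with normexp, 7 with the array median and the deposited table, 8 with quantile normalization, 6 with spike-in scaling and 9 with genes above background on both arrays. The lower count of 15 was 9, 30 and 49 with normexp, the array median (and deposited table) and spike-in scaling, and the median of -0.16 was -0.47 with the array median and deposited table and -0.72 with spike-in scaling. At 0.009%, the higher count of 18 was 6, 7, 8, 4, 9 and 7 with normexp, array median, quantile, spike-in, both-array and deposited values, and the lower count of 8 was 5, 39, 15, 85 and 39 with normexp, array median, quantile, spike-in and deposited values. The median there was -0.56, -0.25, -1.19 and -0.56 with array median, quantile, spike-in and deposited values. Between 0.009 and 0.003%, the higher count of 18 was 1, 2, 9, 0 and 2 and the lower count of 7 was 3, 20, 13, 51 and 20 with normexp, array median, quantile, spike-in and deposited values. Of 146 differences of named Slc genes 19 changed sign in some alternative, and 4 of these had been past 2-fold, all at 0.009%: Slc6a4 with the mean of its probes (0.12) and, with spike-in scaling, Slc6a11 (-0.13), Slc20a1 (-0.18) and Slc26a4 (-0.031). Of 88 named differences past 2-fold, 43 stayed so with normexp, 69 with the array median, 71 with quantile normalization and 64 of 86 with spike-in scaling. The trend called 0 members in limma under every alternative, with 11 to 61 members at an unadjusted p under 0.05. The array medians and spike-in signals set these shifts by construction, since they moved by different amounts between arrays, and the cause of those moves was not tested. Normexp, whose offset of 50 shrinks differences by construction, made 84 of the 88 smaller.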
